A study of Mus musculus with 20 samples.

Results

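Lymph node and spleen of the same animal were compared in 4 Eµ-PRMT5/TCL1 mice by single-cell RNA-sequencing (scRNA-seq). The comparison used 8 of the 20 libraries of the series. Lymph nodes 1, 2, 3 and 4 were paired with spleens 4, 1, 3 and 2 because their titles carry the same mouse number, and the animals are called mice 1 to 4 in that order. Both titles of mouse 2 carry the suffix RT, which no other animal of the series has. The labels do not spell it out, and the study uses RT for Richter's transformation, the change of CLL into an aggressive lymphoma. Without mouse 2 edgeR called 1 gene in B cells, Elane, and 0 in T cells (695 with an unadjusted p below 0.05). Eµ-PRMT5/TCL1 mice carry the human PRMT5 and human TCL1 cDNAs, both placed behind a VH promoter and the immunoglobulin heavy chain Eµ enhancer. The transgenes are thus driven in B lineage cells and not, by design, in T or myeloid cells. The labels give the strain as C57BL/6N, and tissues were collected when mice with chronic lymphocytic leukaemia (CLL)-like disease reached removal criteria. The age of these animals is not given in the labels used here. Nodes were sub-mandibular, and live cells were loaded without selection. Pairs from 3 Eµ-TCL1 mice (mice 5 to 7, 6 libraries), which carry human TCL1 but not human PRMT5, were used to ask whether a difference between the tissues was of another size without the PRMT5 transgene. Mouse genes were counted here, so the human cDNAs were not measured. Mouse Prmt5 in B cells stood at 36.1, 23.5, 19.4 and 19.5 CPM (unique molecular identifiers, UMIs, of a gene, scaled to 1 common total per cell class and library) in the nodes of mice 1 to 4 and at 35.6, 24.1, 22.6 and 18.97 CPM in their spleens, a log2 difference of 0.07 ± 0.18 (SE, n = 4 mice).

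Barcodes were called as cells from 1500 UMIs and 200 genes upwards, where no more than 10% of the UMIs were mitochondrial. A B cell had at least 3 UMIs of Cd79a and Cd79b, the signalling chains of the B cell receptor, no UMI of the Cd3 genes and fewer than 20 UMIs of Jchain, a plasma cell gene. A T cell had at least 2 UMIs of Cd3d, Cd3e and Cd3g, the T cell receptor complex, and at most 1 UMI of the Cd79 genes. These rules gave 14961 B cells and 13547 T cells among 39526 called barcodes, out of 34057 B and 34856 T cells among 97181 barcodes in the whole series. The gates were checked with Ms4a1 and with lists of B and T cell markers. Ms4a1, which encodes CD20, lay between 364 and 1475 CPM in B cells of the 8 libraries, whereas the 8 B cell markers together gave 14.2 to 56.3 CPM in T cells. The 12 T cell markers, 3 of them at 0 in all these libraries, summed to 138, 97.3, 203 and 125 CPM in node B cells of mice 1 to 4 and 74.9, 38.5, 195 and 63.95 CPM in spleen B cells, higher in the node of 4 of 4 mice. The B gate allows no UMI of the Cd3 genes, so that zeros of such genes are set by the rule and are no check. The part of the T cell marker signal in the B cell differences was not tested. UMIs were summed over the B or T cells of a library, and node minus spleen was tested within mice by edgeR's quasi-likelihood test with the mouse as a block and Benjamini-Hochberg (BH) adjustment over all genes tested, at a threshold of 0.05. Mice, not cells, are the replicates in this test. CPM are printed as they are, while log2 differences, and the direction counted in each mouse, follow edgeR's TMM scaling. TMM factors were 0.876 to 1.07 for nodes and 0.928 to 1.29 for spleens in B cells, and 0.821 to 1.22 and 0.985 to 1.35 in T cells. They raised every node minus spleen difference by a mean of 0.12 in B cells and 0.26 in T cells (0.06 and 0.30 without mouse 1) over plain CPM.

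As background, CLL cells circulate between blood, spleen and lymph nodes, and lymph nodes are known as sites where leukaemic B cells meet antigen, T cells and stroma and receive B cell receptor and NF-kB signals. Naive and central memory T cells enter nodes through CCR7 and leave along sphingosine-1-phosphate, whereas effector T cells, red pulp macrophages, neutrophils and, in adult mice, blood-forming precursors are at home in the spleen. PRMT5 is a type II arginine methyltransferase that acts on histones, splicing factors and other proteins.

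Libraries held between 11671583 and 48898249 UMIs, 784 to 8631 called barcodes, 302 to 5213 B cells and 103 to 4119 T cells, with medians of 4482 to 10730 UMIs per B cell and 2729 to 5662 per T cell. Mouse 1 stood apart in both tissues. Its node was the smallest library (438 B and 103 T cells), had 10.6% of its UMIs in barcodes of 10 to 100 UMIs, a measure of free RNA that was 1.03 to 5.05% elsewhere, and its B cells held 518 CPM of salivary gland markers against 12.96 to 75.2 CPM in the other 7 libraries. In its spleen the 80 ribosomal protein genes made up 10.3% of B cell UMIs, against 23.5 to 29.0% in the other 7, and 9.02% of T cell UMIs, against 20.7 to 34.7%. Values without mouse 1 stand beside the results that moved most without it. All nodes carry library numbers 9 to 17 and all spleens higher ones (19 to 30 in these mice), so that tissue and any step that followed this numbering cannot be told apart. Barcodes shared by chance or otherwise made up 0.255 to 1.43% of the smaller library over the 28 pairs of libraries, and 0.768 to 1.43% between the tissues of 1 mouse.

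**Figure D1:**
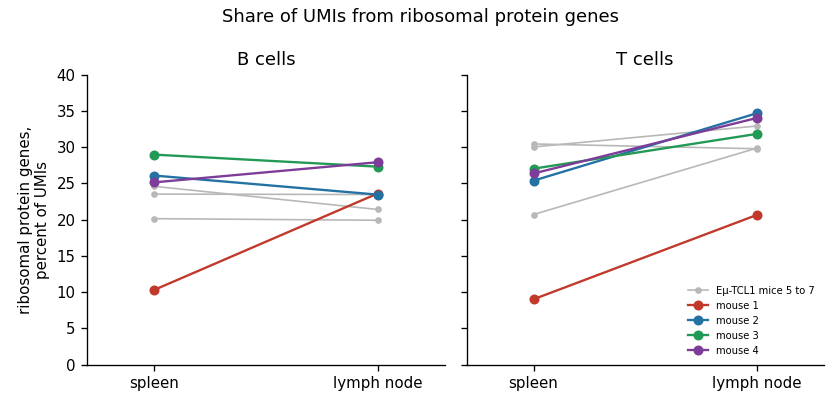
Percent of UMIs from 80 ribosomal protein genes in B cells (left) and T cells (right), with 1 line per mouse from spleen to lymph node, coloured for Eµ-PRMT5/TCL1 mice 1 to 4 and grey for Eµ-TCL1 mice 5 to 7. The spleen of mouse 1 lay at 10.3% in B cells and 9.02% in T cells, under all other libraries.

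Ribosomal protein genes, which encode the structural proteins of the ribosome, took a larger share of T cell UMIs in every node. The share was 20.7, 34.7, 31.8 and 34.0% in the nodes of mice 1 to 4 and 9.02, 25.4, 27.04 and 26.4% in the spleens, a mean difference of 8.35 percentage points (SD 2.88), higher in the node of 4 of 4 mice. The exact sign-flip permutation test over 4 mice gave p = 0.125, the smallest it can give, and 0.25 after BH adjustment over 2 tests. In B cells the nodes had 23.6, 23.5, 27.3 and 27.9% and the spleens 10.3, 26.1, 29.0 and 25.2%, with a mean difference of 2.95 points (exact p = 0.625) that rested on mouse 1. T cells of the Eµ-TCL1 mice had 29.9, 29.8 and 32.9% in the nodes and 20.7, 30.5 and 30.04% in the spleens.

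Neutrophil-like, monocyte/macrophage-like and erythroid-like cells were fewer among node barcodes than among spleen barcodes of every mouse, while the B and T cell shares moved in no common direction. Neutrophil-like cells (at least 20 UMIs of S100a8 and S100a9) made up 0.383, 0.235, 2.08 and 0.127% of node barcodes and 1.43, 0.620, 5.59 and 16.6% of spleen barcodes. The mean difference was −5.34 points (SD 7.52), and −1.64 without mouse 4, whose spleen held the most. Monocyte/macrophage-like cells made up 1.79, 0.406, 0.795 and 0.394% of node barcodes and 2.95, 0.486, 3.07 and 13.3% of spleen barcodes, a difference of −4.10 points (SD 5.91) and of −1.17 without mouse 4. With cells called from 500 UMIs the order held in 3 of 4 mice. Erythroid-like cells (at least 50 haemoglobin UMIs) were at 0 of 784, 4685, 5661 and 8631 node barcodes, which allows shares of up to 0.383, 0.0640, 0.0530 and 0.0348%, and at 0.0927, 0.0838, 0.128 and 0.782% of spleen barcodes. In mouse 1 the limit for erythroid-like cells of the node lay above the spleen share. Each of the 3 classes gave exact p = 0.125, the smallest that 4 mice allow, and 0.375 after BH adjustment over 9 tests, so that none could pass the threshold. In the 3 Eµ-TCL1 mice the same 3 classes were lower in the node of every mouse, by 5.35, 2.23 and 0.143 points.

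B cells made up 55.9, 61.0, 6.98 and 19.4% of node barcodes and 48.1, 87.3, 31.8 and 8.14% of spleen barcodes. T cells made up 13.1, 26.3, 72.8 and 38.0% of node barcodes and 20.8, 3.57, 39.8 and 43.5% of spleen barcodes. For both classes 2 mice went one way and 2 the other (−8.06 points, SD 20.3, for B cells and 10.6 points, SD 20.4, for T cells, exact p = 0.5 and 0.75 after adjustment for each). With each mouse left out the difference ran from −14.5 to −1.95 points for B cells and from 3.16 to 16.7 points for T cells. Among T cells that could be typed, CD8 cells were the larger class in every library, at 64.1, 95.5, 96.9 and 90.9% in the nodes and 81.5, 75.4, 96.5 and 83.0% in the spleens (2.77 points, SD 15.7, exact p = 0.625, adjusted 0.804). Plasma-like cells were at 1.28, 4.57, 0.124 and 1.54% in the nodes and at 12.5, 4.34, 0.171 and 0% in the spleens, where 0 of 3711 allows up to 0.0808% (exact p = 0.875). NK-like cells were under 1% in all 8 libraries (exact p = 0.875). Barcodes in no class made up 26.7, 7.49, 17.2 and 40.6% of node barcodes and 13.8, 3.45, 18.9 and 17.5% of spleen barcodes (exact p = 0.25, adjusted 0.562). In the node of mouse 4, which had 3500 of them, 74.9% held UMIs of both Cd79 and Cd3 genes, and their median of 5344 UMIs was above the 2729 UMIs of T cells there. The 95% Wilson intervals of these shares, which cover counting error only, were 52.4 to 59.3% for B cells and 10.95 to 15.7% for T cells in the node of mouse 1, the library with the fewest barcodes.

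**Figure D2:**
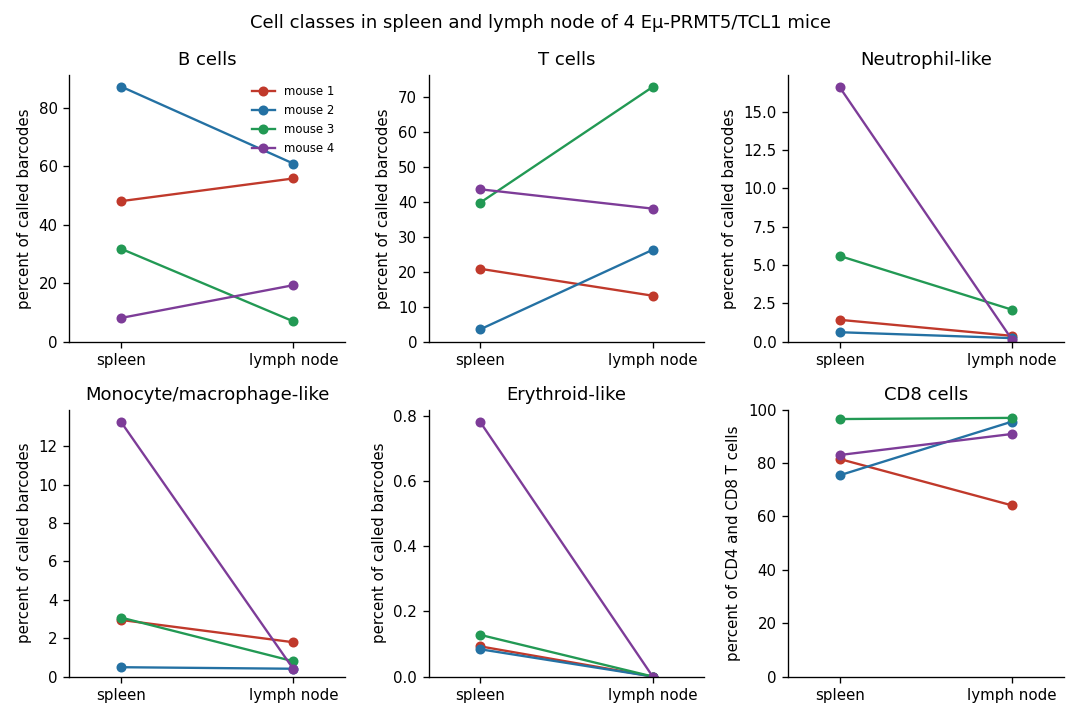
Percent of called barcodes in 5 cell classes, and CD8 cells as a percent of CD4 and CD8 T cells, in spleen and lymph node, with 1 coloured line per Eµ-PRMT5/TCL1 mouse. Neutrophil-like, monocyte/macrophage-like and erythroid-like shares were lower in the node of 4 of 4 mice; the B, T and CD8 panels have lines in both directions.

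The leading heavy chain V gene of B cells was the same in node and spleen of 4 of 4 mice, and differed between mice. Cells of a CLL clone share their rearranged heavy and light chain genes, which can be more than 1 of each, so that V genes mark a clone. Ighv1-52 made up 96.5% of Ighv UMIs in the node and 89.4% in the spleen of mouse 1, and Ighv5-9-1 made up 99.8 and 98.5% in mouse 4. In mouse 2, Ighv8-2 made up 63.0% in the node and 63.1% in the spleen, with Ighv1-55 at 37.0 and 36.9%. Whether both belong to 1 clone was not tested. In mouse 3, Ighv1-9 made up 73.0% in the node and 88.9% in the spleen. The leading light chain gene was shared in 3 mice: Igkv1-117 in mouse 1 (84.0% of Igkv UMIs in the node and 92.9% in the spleen), Igkv12-89 in mouse 2 (96.5 and 95.4%) and Igkv6-15 in mouse 4 (99.6 and 96.8%). In mouse 3 few B cells held kappa V signal: 72 of 395 in the node and 204 of 1492 in the spleen had 2 or more Igkv UMIs. Igkv4-91 took 39.1% of these UMIs in the node and 39.3% in the spleen, and Igkv10-95 36.9 and 49.6%. Igkv10-95 led in 1 such cell of the node and 46 of the spleen, so that these shares do not mark most B cells of that mouse. T cell receptor beta V genes were spread over more segments. Trbv13-1 led in both tissues of mouse 1 (24.2 and 11.1% of Trbv UMIs) and Trbv12-2 in both tissues of mouse 3 (25.3 and 21.5%). Mouse 2 had Trbv16 at 20.1% in the node and 9.55% in the spleen, and mouse 4 had Trbv12-2 at 11.4 and 10.4%. B cell sums of 1 mouse therefore set cells with the same leading heavy chain gene beside each other in both tissues.

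In B cells no gene of 11065 passed the threshold (edgeR, adjusted p; 0% called), and 581 genes had an unadjusted p below 0.05. Of these 264 were lower in the node (2.39% of genes tested) and the others higher (2.86%). DESeq2 on the same sums called 46 genes, 27 higher and 19 lower. The node was higher in 4 of 4 mice for 766 genes (6.92%) and lower for 818 (7.39%), and the ranges of the tissues did not overlap for 211 (1.91%). Without mouse 1 the edgeR test called 2 genes of 11111 (0.018%), Egr1 and Cystm1, both higher in the node. In simulated B cell sums of the same size edgeR found 20% of genes changed by log2 1 and 78% of genes changed by log2 2, so that changes of 2-fold would mostly be missed. The genes described below were not called in the 4 mice. By the naming rule they had the largest log2 difference among genes with an unadjusted p below 0.05, at least 20 CPM in the higher tissue and the same direction in every mouse, which 133 genes higher and 121 genes lower in the node fulfilled.

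The metallothioneins Mt1 and Mt2, small cysteine-rich proteins that bind zinc and copper, were the genes with the largest difference toward the node. Mt1 stood at 529, 1547, 424 and 1190 CPM in the nodes of mice 1 to 4 and at 39.3, 373, 182 and 236 CPM in the spleens, and the tissues did not overlap. The log2 difference was 2.43 ± 0.46 (SE, n = 4; edgeR adjusted p = 0.708) and 1.93 without mouse 1. Mt2 stood at 66.3, 143, 43.3 and 128 CPM in the nodes and 3.25, 38.6, 22.6 and 20.4 CPM in the spleens (2.51 ± 0.56, adjusted p = 0.708; 1.87 without mouse 1). The shares below count the same UMIs per cell. Mt1 was named for having the same direction in every mouse, so that these shares are no separate support. After every cell had been thinned to 1500 UMIs, Mt1 had a UMI in 22.2, 55.2, 18.7 and 44.7% of node B cells and 4.55, 17.9, 11.5 and 8.61% of spleen B cells, a difference of 24.6 points (SD 14.7, 4 of 4 mice, exact p = 0.125, adjusted 0.571 over 32 tests). T cells, taken as background from free RNA, had a UMI of Mt1 in 2.77 to 5.16%, and unthinned B cells in 48.2, 65.2, 38.2 and 60.0% of node cells and 13.3, 27.9, 28.9 and 26.2% of spleen cells. In the Eµ-TCL1 mice Mt1 was at 656, 720 and 957 CPM in node B cells and 568, 274 and 279 CPM in spleen B cells, a log2 difference of 1.07, and the difference between the genotypes was 1.35 (interaction, unadjusted p = 0.077).

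Histone genes were next by size, and here mouse 1 carried much of the difference. Hist1h2ap, an H2A histone gene, stood at 927, 270, 215 and 434 CPM in the nodes and at 27.4, 151, 150 and 148 CPM in the spleens (log2 1.89 ± 0.78, adjusted p = 0.926; 1.03 without mouse 1). Hist2h2aa1, another H2A gene, stood at 65.0, 16.4, 20.3 and 18.2 CPM in the nodes and 1.06, 7.90, 5.80 and 8.43 CPM in the spleens (2.31 ± 0.82; 1.36 without mouse 1). Both were higher in the node in each mouse, and both had the lowest spleen value and the highest node value in mouse 1. In the Eµ-TCL1 mice the difference was 1.96 ± 0.20 for Hist1h2ap (edgeR adjusted p = 0.0598) and 1.35 ± 0.19 for Hist2h2aa1 (adjusted p = 0.121). The difference between the genotypes was −0.08 for Hist1h2ap (interaction, unadjusted p = 0.942) and 0.96 for Hist2h2aa1 (0.379). Histone genes of this kind have near-identical copies whose reads cannot always be assigned, so that these counts are uncertain. The cell cycle lists had medians near 0 in B cells of the 4 mice. Of 28 S phase genes 0 were higher and 1 was lower in the node of 4 of 4 mice with a median log2 difference of 0.04, and of 34 G2/M genes 2 were higher and 2 lower with a median of −0.05, against a median of 0.02 over all genes. Of all B cell genes 6.92% were higher and 7.39% lower in 4 of 4 mice. On plain CPM the S phase median turned to −0.08 and the G2/M median was −0.17. Without mouse 1 the S phase median was 0.16, with 24 of 28 genes above 0 (20 on plain CPM), and the G2/M median was 0.01. Mki67, a marker of cycling cells, was at 83.5, 37.0, 23.5 and 80.4 CPM in node B cells and 92.8, 38.0, 22.1 and 36.5 CPM in spleen B cells.

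Further genes toward the node were Cystm1, Klf5, Epcam and Amigo2. Cystm1, a small cysteine-rich membrane protein, stood at 25.2, 217, 109 and 35.4 CPM in the nodes and 20.5, 49.2, 30.9 and 9.84 CPM in the spleens (1.65 ± 0.30, adjusted p = 0.681), and was called without mouse 1 (log2 2.00, adjusted p = 0.0441). Klf5, a zinc finger transcription factor, stood at 53.9, 11.95, 22.1 and 35.7 CPM in the nodes and 12.1, 4.04, 20.9 and 3.51 CPM in the spleens (1.82 ± 0.49). Amigo2, an adhesion molecule, stood at 42.0, 49.0, 53.5 and 130 CPM in the nodes and 47.1, 19.2, 16.8 and 14.8 CPM in the spleens by raw CPM, so that mouse 1 was higher in the node only after scaling (1.57 ± 0.46). Epcam, an epithelial adhesion molecule, stood at 66.1, 54.4, 6.91 and 16.4 CPM in the nodes and 10.3, 19.9, 5.87 and 7.73 CPM in the spleens (1.58 ± 0.41). Epcam is also 1 of the 12 salivary gland markers, whose sum in B cells was 518, 64.7, 25.4 and 59.2 CPM in the nodes and 74.7, 28.4, 12.96 and 75.2 CPM in the spleens, and the part of this signal in the result was not tested.

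**Figure D3:**
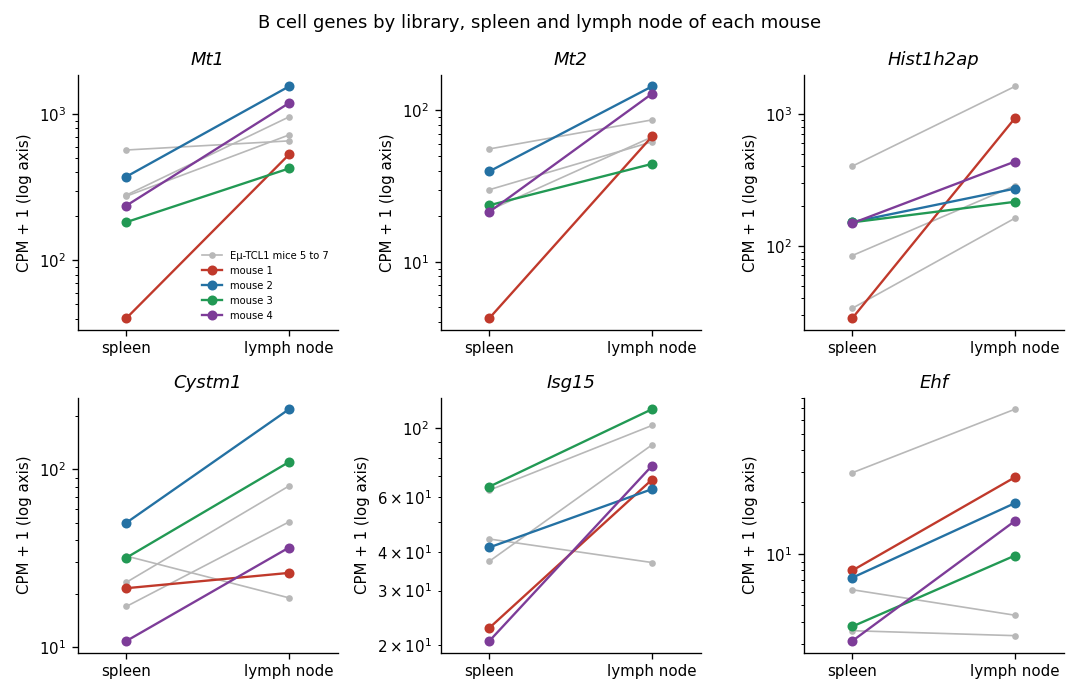
CPM + 1 on a log axis for Mt1, Mt2, Hist1h2ap, Cystm1, Isg15 and Ehf in B cells, with 1 line per mouse from spleen to lymph node, coloured for Eµ-PRMT5/TCL1 mice and grey for Eµ-TCL1 mice. Mt1 was higher in the node of each coloured mouse (424 to 1547 CPM against 39.3 to 373 CPM). Ehf was higher in the nodes of mice 1 to 4, with a log2 difference of 0.14 in the grey mice. Among the grey mice, mouse 5 had 68.3 CPM in the node and 28.6 CPM in the spleen, and the others had at most 5.17 CPM.

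The genes with the largest difference toward the spleen in B cells included a haemoglobin chain and granule genes, known from erythroid cells and neutrophil precursors. Hbb-bs, a haemoglobin chain, stood at 0.370, 0.375, 0.461 and 0.240 CPM in node B cells and at 5.87, 8.70, 6.70 and 1659 CPM in spleen B cells (−7.92 ± 1.71). Mpo, Ctsg, Prtn3 and Elane, granule proteins of neutrophil precursors, followed with log2 differences of −6.86, −6.74, −5.89 and −5.40. They passed the filter on low counts through the spleen. Node counts were 0 to 8 UMIs, except for Prtn3 and Elane in mouse 2 (69 and 111 UMIs), so that the size and order of these fitted differences are uncertain. Mpo was at 0.185, 0.5004, 0.461 and 0 CPM in the nodes and 16.04, 4.16, 54.3 and 329 CPM in the spleens. All 5 had their highest value in the spleen of mouse 4, which also had the largest neutrophil-like, monocyte/macrophage-like and erythroid-like shares. The 11 neutrophil markers summed to 0.185, 216, 4653 and 0.480 CPM in node B cells and 207, 416, 3745 and 5028 CPM in spleen B cells, and the erythroid markers to 5.37, 7.82, 3.23 and 0.719 CPM and 14.2, 14.3, 12.4 and 2287 CPM. The part of such cells or their free RNA in these differences was not tested. Ly6c2, a surface protein of monocytes, plasma cells and some lymphocytes, stood at 0.926, 2.25, 20.3 and 38.8 CPM in the nodes and 6.80, 5.96, 59.2 and 257 CPM in the spleens (−1.97 ± 0.28, adjusted p = 0.591). With cells that held a UMI of 7 haemoglobin and myeloid genes left out, its difference was 0.56, in the other direction. Galnt7, a Golgi enzyme that adds sugars to proteins, stood at 3.70, 20.1, 0.461 and 2.76 CPM in the nodes and 11.2, 42.8, 3.16 and 34.8 CPM in the spleens (−1.94 ± 0.45). Ankrd9, an ankyrin repeat protein, stood at 2.96, 8.95, 65.0 and 5.16 CPM and 70.6, 16.2, 91.0 and 18.3 CPM (−1.63 ± 0.58; −0.93 without mouse 1).

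Activation genes of B cells lay toward the node once mouse 1 was left out. Of 23 immediate early and activation genes, which are switched on within minutes of receptor signals or of tissue handling, 18 had a positive log2 difference (median 0.47), and the median was 1.05 without mouse 1 and 0.54 in the Eµ-TCL1 mice. Btg2, an antiproliferative gene, was the member higher in 4 of 4 mice (0.36 ± 0.19). Egr1, a transcription factor of this class, was at 137, 107, 369 and 116 CPM in the nodes and 564, 27.04, 78.8 and 26.4 CPM in the spleens. It was higher in the node of mice 2 to 4 and lower in mouse 1, with a log2 difference of 1.37 ± 0.72 over 4 mice and of 2.17 without mouse 1, where it was called (adjusted p = 0.039). Its difference in the Eµ-TCL1 mice was 2.06. Nr4a3, an orphan nuclear receptor that follows antigen receptor signals, was at 2.59, 10.2, 52.1 and 5.63 CPM in the nodes and 6.49, 2.63, 8.12 and 2.11 CPM in the spleens (1.44 ± 0.60; 2.20 without mouse 1). Cd69, an early activation marker, was at 57.2, 110, 165 and 73.1 CPM and 269, 55.2, 33.4 and 58.0 CPM, again lower in the node of mouse 1 alone.

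NF-kB and B cell receptor genes showed small differences. Of 21 tested NF-kB subunits and targets (of 22 listed), 19 had a positive difference with a median of 0.16, and 16 on plain CPM with a median of 0.05. Without mouse 1 the median was 0.34, and 0.27 on plain CPM. The member higher in 4 of 4 mice was Nfkb1, which encodes p105/p50 (106, 161, 180 and 139 CPM in the nodes against 93.1, 96.4, 83.7 and 134 CPM in the spleens, 0.64 ± 0.21). Of 23 receptor signalling genes 2 were higher and 3 lower in 4 of 4 mice, where 6.92% of all genes were higher and 7.39% lower, with a median of −0.10. Their summed CPM was 6582, 8415, 6007 and 5920 in the nodes and 10840, 8497, 7275 and 7643 in the spleens, lower in the node of 4 of 4 mice and close in mouse 2. Pik3ap1, the adaptor BCAP, was higher in each (112, 55.1, 71.0 and 28.8 CPM against 76.8, 30.4, 38.9 and 27.1 CPM, 0.71 ± 0.19). Syk, the kinase next to the receptor, was lower in each (143, 175, 117 and 197 CPM against 324, 273, 142 and 285 CPM, −0.54 ± 0.20), as was Cd79b, a gate gene. Cd70, the ligand of CD27, was at 3.15, 0.626, 1.38 and 10.8 CPM in the nodes and 0.624, 0.148, 0.129 and 1.76 CPM in the spleens (2.61 ± 0.43, adjusted p = 0.681), higher in each mouse on counts of 3 to 90 UMIs in the nodes and 2 to 10 in the spleens. Of the 14 tested genes of its list, TNF family ligands and receptors that act in B cell survival, 2 were higher and 0 lower in 4 of 4 mice (median 0.12).

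Interferon, stress and metabolic genes of B cells were mixed. For the counts below, 6.92% of all B cell genes were higher and 7.39% lower in the node of 4 of 4 mice. Isg15, an interferon-induced ubiquitin-like protein, stood at 67.2, 62.6, 114 and 74.6 CPM in the nodes and at 21.8, 40.3, 63.8 and 19.7 CPM in the spleens (1.35 ± 0.29, adjusted p = 0.708). Ifi213, another interferon-induced gene, stood at 0.741, 22.9, 4.15 and 5.51 CPM against 0.749, 4.45, 0.387 and 1.76 CPM (2.05 ± 0.49). The list they belong to did not share this. Of 48 tested interferon-stimulated genes (of 51) 3 were higher and 6 lower in 4 of 4 mice, with a median of −0.19. The share of thinned B cells with a UMI of Isg15 was 6.85, 6.20, 11.7 and 7.67% in the nodes and 2.51, 5.03, 9.25 and 2.65% in the spleens (exact p = 0.125, adjusted 0.571). T cells, which express the gene as well, had 5.83 to 18.8%, and the part of free RNA in the B cell shares was not tested. Of 20 tested stress and unfolded protein genes 3 were higher and 0 lower in 4 of 4 mice (median 0.29). They were Trib3 (0.68 ± 0.20) and Ddit3 (0.48 ± 0.18), regulators of the integrated stress response, and Slc3a2, an amino acid transporter chain (0.54 ± 0.20). Chac1, a glutathione-degrading enzyme of the same list, was higher in 3 mice (57.8, 15.6, 76.0 and 93.4 CPM against 71.2, 4.51, 23.9 and 38.3 CPM, 1.23 ± 0.33). Of 14 heat shock genes 4 were higher and 0 lower in 4 of 4 mice (median 0.37, and 0.66 without mouse 1). Of 27 nucleolar ribosome biogenesis genes 4 were higher and 0 lower (median 0.12), and of 12 tested glucocorticoid response genes 2 were higher, Mt1 and Mt2 (median 0.31). Nuclear genes of oxidative phosphorylation had a median of 0.46 over 40 genes, and of −0.00 without mouse 1. Of 18 tested glycolysis genes 2 were higher and 1 was lower (median −0.12), and of 15 tested hypoxia genes 1 was higher (median 0.06).

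Most homing receptors of B cells had a negative log2 difference, but the mice did not share a direction. Of 27 tested (of 30) 20 were below 0 and 7 above, with a median of −0.25 (−0.28 without mouse 1 and 0.07 in the Eµ-TCL1 mice). In the node of 4 of 4 mice 0 were higher and 1 was lower, where 6.92% of all genes were higher and 7.39% lower. The summed CPM of the list was higher in the node in 2 of 4 mice. S1pr1, the sphingosine-1-phosphate receptor that guides lymphocytes out of nodes, was at 49.3, 115, 83.0 and 7.55 CPM in the nodes and 258, 151, 79.8 and 82.9 CPM in the spleens (−1.38 ± 0.56), lower in the node except in mouse 3, where the values were close. Itgb7, a gut-homing integrin chain, was at 149, 78.8, 108 and 99.1 CPM against 351, 109, 179 and 190 CPM (−0.73 ± 0.18, adjusted p = 0.763) and was the member lower in each mouse. Ccr7, the receptor for node entry, was at 106, 672, 236 and 104 CPM in the nodes and 363, 150, 127 and 82.6 CPM in the spleens, higher in the nodes of mice 2 to 4 (0.55 ± 0.56; 1.20 without mouse 1 and 1.603 in the Eµ-TCL1 mice). Lymphoid cytokine genes included Lta, lymphotoxin alpha (21.9, 25.9, 17.97 and 10.1 CPM against 16.9, 9.26, 13.3 and 9.14 CPM, 0.75 ± 0.25), and Ccl17, a T cell chemoattractant (14.3, 12.4, 19.8 and 15.9 CPM against 0.936, 10.9, 8.38 and 9.49 CPM, 1.47 ± 0.60; 0.75 without mouse 1), and these were the 2 of 17 tested cytokine genes that were higher in 4 of 4 mice. Lists of B-1 and CLL genes (20 genes, median −0.12), MHC class II genes (13, −0.08), follicular and marginal zone genes (18 tested of 20, 0.13), germinal centre genes (12 tested of 15, −0.32) and genes named in the study for nodes and tumours (27, −0.03, a list chosen on these samples) held 0 genes higher in 4 of 4 mice. Members lower in each mouse included Anxa2, annexin A2 (−1.04 ± 0.33), Tubb5 and Aldh2. Myc was at 146, 189, 168 and 129 CPM in the nodes and 463, 179, 113 and 77.3 CPM in the spleens (0.06 ± 0.38; 0.51 without mouse 1).

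In T cell sums 2 genes of 10599 were called, both lower in the node (edgeR, adjusted p below 0.05; 0.0189% called), Cxcl2, a neutrophil chemokine, and F10, coagulation factor X, both known from myeloid cells. Cxcl2 stood at 0, 0.380, 0.375 and 0.101 CPM in the nodes, on 0, 2, 6 and 1 UMIs, and at 35.0, 95.7, 16.2 and 3.15 CPM in the spleens (log2 −5.98 ± 0.50, adjusted p = 0.0365). A UMI of Cxcl2 was found in 0, 0.0813, 0.0728 and 0.0305% of node T cells and 0.534, 0.939, 0.590 and 0.557% of spleen T cells, so that the call rests on few cells. F10 stood at 0, 0, 0.624 and 1.31 CPM in the nodes and 14.4, 1.77, 16.1 and 43.1 CPM in the spleens (−4.67 ± 0.38, adjusted p = 0.0365). Node values of both were near 0, and they passed the filter on low counts through the spleen, so that the size of these fitted differences is uncertain. Both were also called without mouse 1 (adjusted p = 0.0131 and 0.0107). Neither was called without mouse 2, 3 or 4, without the block, or with cells from 500 or 3000 UMIs, where Cxcl2 had adjusted p = 0.079 to 0.243. F10 did not pass the filter on low counts without mouse 3 or mouse 4. Neither could be tested once T cells were thinned or those with a UMI of the 7 haemoglobin and myeloid genes were left out, because too few UMIs remained. The other genes with the largest difference toward the spleen are known from erythroid or myeloid cells. They included the haemoglobin chains Hbb-bs (0, 0.190, 0.562 and 0 CPM against 1.42, 450, 8.12 and 368 CPM, −8.14 ± 1.48) and Hbb-bt (−6.02). Among the myeloid genes were Clec4e (−5.07), Cd14 (−4.60), Hp (−4.16) and Lyz2, lysozyme (0, 3.80, 75.9 and 18.6 CPM against 403, 16.8, 867 and 1876 CPM, −4.45 ± 0.99). Csf1r, the receptor for the macrophage growth factor, was next (0, 0.190, 1.44 and 1.31 CPM against 16.1, 6.20, 17.7 and 41.9 CPM, −4.11 ± 0.41, adjusted p = 0.0578). Hbb-bs, Clec4e, Cd14 and Csf1r also had low node values and passed the filter on low counts through the spleen. The size of their fitted differences is therefore uncertain as well. Within T cells the 11 neutrophil markers summed to 0, 1.52, 1835 and 0.705 CPM in the nodes and 1559, 4.43, 3426 and 7477 CPM in the spleens. The 13 monocyte and macrophage markers summed to 169, 670, 968 and 636 CPM and 882, 311, 1830 and 3041 CPM, and the 10 erythroid markers to 124, 7.60, 10.4 and 8.26 CPM and 16.3, 594, 60.1 and 568 CPM. In barcodes of free RNA the neutrophil markers summed to 376, 931, 9931 and 328 CPM in the nodes and 4790, 4917, 17540 and 27240 CPM in the spleens.

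Over all T cell genes 1015 had an unadjusted p below 0.05, of which 431 were higher in the node (4.07%) and 584 lower (5.51%). The node was higher in 4 of 4 mice for 1014 genes (9.57%) and lower for 1029 (9.71%), and 603 did not overlap between the tissues (5.69%). DESeq2 called 155, of which 46 were higher and 109 lower. Without mouse 1, whose node gave 103 T cells, edgeR called 480 of 10847 genes, 290 higher (2.67%) and 190 lower (1.75%). With T cells that held a UMI of the 7 haemoglobin and myeloid genes left out as well, 125 genes were called, 116 of them among the 480. Of the gene list members described below, Itga4, Nr4a3, Cd69, Nfkbid, Isg20, Hsph1, Hspa8, Asns, Igfbp4 and Cx3cr1 were called in both settings, and the other members called without mouse 1 were not called with these cells left out too, where Slc7a11 could not be tested. Verbs of change below are used of T cell genes in mice 2 to 4 only where the edgeR test without mouse 1 called them, and the values of all 4 mice are given. Fits without mouse 2, 3 or 4 instead called 0, 1 and 0 genes. The adjusted p-values without mouse 1 do not account for the choice of that fit, and mouse 1 went the other way in some of these genes. In simulated T cell sums edgeR found 6% of genes changed by log2 1 and 76% of those changed by log2 2.

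Most cell cycle genes had lower values in node T cells, though none was called. Of 34 G2/M genes, which act in mitosis, 20 were lower and 0 higher in the node of 4 of 4 mice, 22 had an unadjusted p below 0.05, all lower, and the median log2 difference was −1.09 against 0.01 over all genes. Of 28 S phase genes, which act in DNA replication, 15 were lower and 0 higher, 12 had an unadjusted p below 0.05, all lower, and the median was −0.75. Of all T cell genes 9.71% were lower in the node of 4 of 4 mice, and 5.51% were lower with an unadjusted p below 0.05. Plain CPM gave list medians of −1.35 and −1.01. Without mouse 1 the medians were −0.87 and −0.58, and no member of either list was called with or without that mouse. With T cells that held a UMI of the 7 haemoglobin and myeloid genes left out, the medians over 4 mice were −0.83 and −0.74. The part of RNA from other cells in these differences was not tested. Mki67 was at 36.6, 14.8, 19.7 and 29.4 CPM in the nodes and at 110, 95.7, 26.5 and 60.6 CPM in the spleens (−1.12 ± 0.35, adjusted p = 0.435). Top2a, the topoisomerase of dividing cells, was at 48.8, 27.4, 30.5 and 45.7 CPM against 181, 176, 45.2 and 90.5 CPM (−1.23 ± 0.35, adjusted p = 0.398). Mouse 3 had the smallest gap between its tissues in both genes, and its spleen lay within the range of the nodes. Bub1, a kinase of the spindle checkpoint, was at 2.04, 1.71, 0.499 and 2.22 CPM against 13.7, 11.5, 2.904 and 4.39 CPM, with no overlap (−1.78 ± 0.44, adjusted p = 0.357), on few UMIs in the nodes. Tyms, thymidylate synthase, was at 22.4, 16.9, 17.7 and 19.6 CPM against 84.4, 83.3, 24.8 and 44.7 CPM, again with no overlap (−1.13 ± 0.31, adjusted p = 0.39). Cdk1, the kinase that starts mitosis, was at 26.5, 4.56, 7.74 and 13.7 CPM against 83.4, 43.4, 11.7 and 28.9 CPM (−1.27 ± 0.40). Pcna, the replication clamp, went with the list less (−0.17 ± 0.41).

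The share of T cells that held a UMI, taken from the same UMIs, had the same direction. After thinning to 1500 UMIs, Mki67 had a UMI in 2.91, 1.14, 1.14 and 1.46% of node T cells and 5.17, 8.45, 1.502 and 3.16% of spleen T cells (−2.91 points, SD 3.04, lower in 4 of 4 mice, exact p = 0.125, adjusted 0.571). Top2a had one in 3.88, 2.68, 2.40 and 3.20% of node T cells and 9.80, 10.8, 3.11 and 5.82% of spleen T cells (−4.34 points). In CD8 cells alone the median was −1.21 over G2/M genes and −0.83 over S phase genes, and in CD4 cells 0.12 and −0.08. The CD4 sums rested on 28, 42, 102 and 206 node cells of mice 1 to 4 and on 163, 30, 58 and 214 spleen cells. Only 5907 genes could be tested in them, so that the CD4 medians are uncertain, and no test compared the cell types. The Eµ-TCL1 mice had medians of −0.14 (G2/M) and −0.20 (S phase) in T cells, with Mki67 at 21.9, 8.83 and 4.65 CPM in the nodes and 44.0, 5.79 and 4.76 CPM in the spleens. The difference between the genotypes was −1.25 for Top2a (interaction, unadjusted p = 0.099), which did not pass the threshold.

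**Figure D4:**
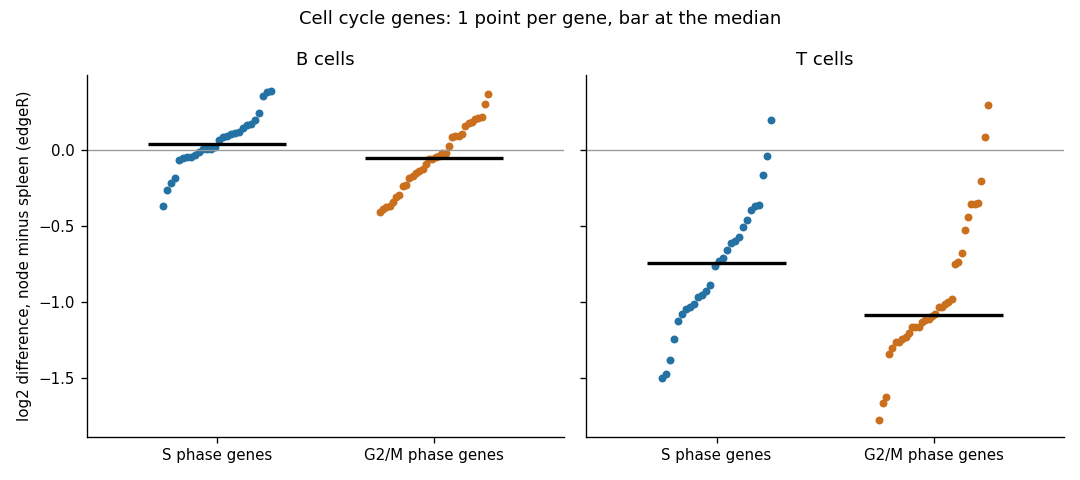
Log2 difference, node minus spleen (edgeR), of 28 S phase and 34 G2/M genes in B cells (left) and T cells (right), 1 point per gene, sorted, with a bar at the median. The medians were 0.04 and −0.05 in B cells and −0.75 and −1.09 in T cells.

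No checkpoint gene was called over 4 mice. Of 15 tested checkpoint and exhaustion genes (of 16) 7 were lower and 0 higher in 4 of 4 mice, 4 had an unadjusted p below 0.05, all lower, and the median was −0.44, −0.43 without mouse 1 and −1.299 in the Eµ-TCL1 mice. Among all T cell genes 9.71% were lower in 4 of 4 mice, and 5.51% were lower with an unadjusted p below 0.05. Pdcd1, which encodes PD-1, was at 354, 27.9, 28.3 and 73.6 CPM in the nodes and 406, 145, 273 and 141 CPM in the spleens (−1.42 ± 0.50, adjusted p = 0.456; −1.89 without mouse 1). The node of mouse 1 was far above the other nodes. Tnfrsf9, the co-stimulatory receptor 4-1BB, was at 75.3, 74.1, 33.0 and 58.5 CPM against 241, 246, 119 and 86.1 CPM, with no overlap (−1.19 ± 0.27, adjusted p = 0.337). Entpd1, the ectonucleotidase CD39, was at 28.5, 2.85, 3.12 and 6.25 CPM against 37.4, 21.3, 23.7 and 20.7 CPM (−1.77 ± 0.42), and fell in the node of mice 2 to 4 (−2.16, adjusted p = 0.0218; 0.0549 with the free RNA cells left out). Lag3 was at 106, 11.8, 17.8 and 82.2 CPM against 205, 70.0, 80.6 and 67.8 CPM, higher in the node of mouse 4 (−1.08 ± 0.46). Havcr2, which encodes TIM-3, had a difference of −1.05 ± 0.38, and Tigit one of −0.37. Entpd1, Havcr2 and Capg, below, are also expressed by myeloid cells, whose marker sums in T cells are given above, and the part of that RNA in these values was not tested. Pdcd1 had a UMI in 31.1, 3.25, 2.55 and 5.95% of thinned node T cells and 28.1, 14.1, 23.7 and 16.04% of spleen T cells (−9.79 points, exact p = 0.25, adjusted 0.571), with 0.077 to 2.04% in B cells as background. Of 13 tested regulatory T cell genes (of 15) 0 were higher and 2 lower in 4 of 4 mice (median −0.38), where 9.57% of all genes were higher and 9.71% lower. Capg, an actin-capping protein of that list, fell in the node of mice 2 to 4 (114, 25.3, 28.5 and 51.0 CPM against 170, 42.5, 81.0 and 133 CPM, −0.97, adjusted p = 0.041; −0.45 with the free RNA cells left out, adjusted p = 0.207), while the median of the list was −1.09 in CD8 cells and 0.10 in CD4 cells. The CD4 median rests on the few cells given above and is uncertain.

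Of the genes of naive and central memory T cells 5 rose in mice 2 to 4, where 2.67% of all genes did. Of 13 tested (of 14) 12 had a positive difference, 11 on plain CPM, 2 were higher and 0 lower in 4 of 4 mice (9.57% of all genes were higher), and the median was 0.41 in 4 mice, 0.63 without mouse 1 and 0.38 in the Eµ-TCL1 mice. The 2 were Dapl1 and Foxp1, a factor of T cell quiescence. Ccr7 was at 50.9, 1118, 740 and 574 CPM in the nodes and 565, 429, 482 and 284 CPM in the spleens. It rose in mice 2 to 4 (1.305, adjusted p = 0.0251) and was far lower in the node of mouse 1 than in its spleen, so that the difference over 4 mice was 0.47 ± 0.83. Klf2, a factor that maintains egress receptors, was at 395, 387, 425 and 499 CPM against 488, 230, 323 and 316 CPM (0.90 without mouse 1, adjusted p = 0.0283). Satb1, a chromatin organiser, was at 46.8, 497, 440 and 414 CPM against 265, 278, 357 and 192 CPM (1.05, adjusted p = 0.0317). Igfbp4 was at 0, 24.3, 9.93 and 35.6 CPM against 5.20, 3.55, 3.84 and 14.03 CPM (1.84, adjusted p = 0.0263). Dapl1 was the member higher in the node of each mouse with the lowest adjusted p over 4 mice (12.2, 5.51, 2.44 and 6.95 CPM against 0.709, 0.886, 0.769 and 2.86 CPM, 2.27 ± 0.51, adjusted p = 0.337; 1.84 without mouse 1, adjusted p = 0.046), with a difference of 1.88 in the Eµ-TCL1 mice. Its spleen values were low and it passed the filter on low counts mainly through the node, so that the size of its difference is uncertain. For the same reason Dapl1 gives the counts of 5 and 2 genes above no firm support.

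Some effector and migration genes fell in mice 2 to 4, without a common direction over their lists. Itga4, the alpha 4 integrin chain, was at 684, 28.3, 21.9 and 63.3 CPM in the nodes and 192, 126, 125 and 234 CPM in the spleens, and fell in mice 2 to 4 (−1.88, adjusted p = 0.0132). Cxcr6, a receptor of tissue T cells, was at 726, 31.7, 34.5 and 46.5 CPM against 124, 69.1, 183 and 136 CPM (−1.44, adjusted p = 0.0462). Ccr2, an inflammatory chemokine receptor, was at 95.6, 17.5, 15.98 and 20.5 CPM against 80.1, 36.3, 56.7 and 96.6 CPM (−1.49, adjusted p = 0.0342). Each of the 3 had its highest node value in mouse 1, above the spleen of that mouse. Cx3cr1, a receptor of effector CD8 cells and of monocytes, was at 18.3, 0.570, 1.31 and 1.71 CPM against 8.98, 1.77, 13.6 and 12.9 CPM (−2.74, adjusted p = 0.0216). Cx3cr1 was higher in the node of mouse 1, and its values in mouse 2 rest on few UMIs, so that the size of its difference is uncertain. Gzmk, granzyme K, was at 1320, 85.0, 83.3 and 114 CPM against 1031, 177, 267 and 483 CPM (−1.32, adjusted p = 0.0377). Id2, a regulator of effector differentiation, fell (−0.58, adjusted p = 0.0484) and Gzmm, granzyme M, rose (1.48, adjusted p = 0.0255) in those mice, so that of 24 effector genes 3 fell and 1 rose, with a median of −0.10. Among 24 tested homing receptors (of 30) 4 rose in mice 2 to 4 (Ccr7, Klf2, Cxcr4 and Cxcr5) and 3 fell (Itga4, Cxcr6 and Ccr2), with a median of 0.00. For comparison with both lists, 2.67% of all genes rose and 1.75% fell in the same test.

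Of 23 early activation genes 4 rose in T cells of mice 2 to 4, where 2.67% of all genes did, and the summed CPM of the list was higher in the node in 2 of 4 mice, 3 and 4. The log2 difference had a median of 0.70 in these 3 mice and 0.15 in all 4, which is −0.11 on plain CPM. Cd69 was at 120, 196, 310 and 245 CPM in the nodes and 277, 113, 182 and 109 CPM in the spleens (1.21 without mouse 1, adjusted p = 0.0188; 0.70 ± 0.43 with it). Nr4a3 was at 4.07, 55.5, 86.8 and 45.1 CPM against 94.6, 40.8, 23.2 and 10.9 CPM (1.85, adjusted p = 0.0322). Dusp2, a phosphatase that restrains MAP kinases, was at 360, 394, 734 and 568 CPM against 976, 179, 465 and 329 CPM (1.16, adjusted p = 0.0227). Ier5 also rose (0.70, adjusted p = 0.0342). Of 21 tested NF-kB genes 3 rose (Nfkb1, Rela and Nfkbid, log2 0.68, 0.66 and 1.25) and Ebi3, a cytokine subunit, fell (−1.51). Of 14 heat shock genes all 14 had a positive difference over 4 mice (median 0.34), 10 of them on plain CPM, and Hsph1, Hspa8 and Dnaja1 rose in mice 2 to 4 (1.10, 0.82 and 0.75). Of 27 nucleolar genes 5 rose in these mice (Npm1, Rrp12, Odc1, Tsr1 and Ddx21), with a median of 0.48 against 0.14 over all 4. Of 48 tested interferon-stimulated genes 3 fell and 0 rose in mice 2 to 4, where 1.75% of all genes fell and 2.67% rose, among them Isg20 and Xaf1 (−0.99 and −0.82), with a median of −0.10 over 4 mice.

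**Figure D5:**
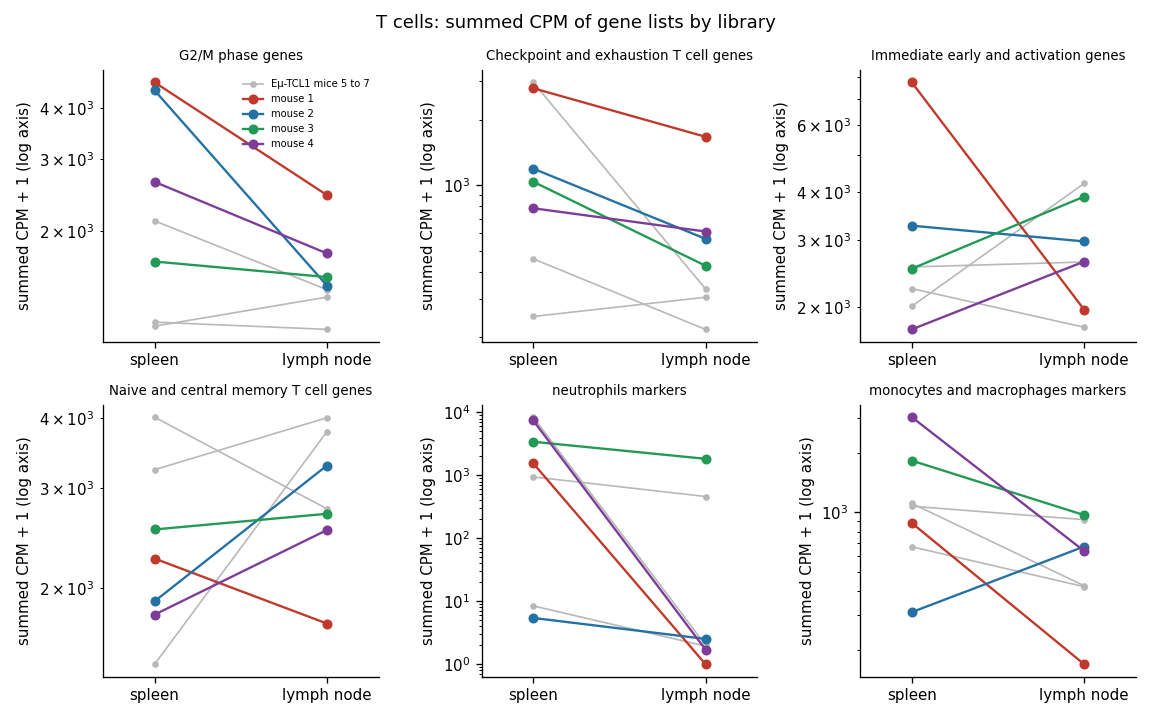
Summed CPM + 1 on a log axis in T cells for G2/M, checkpoint, immediate early and naive gene lists and for neutrophil and monocyte/macrophage markers, with 1 line per mouse from spleen to lymph node, coloured for Eµ-PRMT5/TCL1 and grey for Eµ-TCL1 mice. The G2/M sum was 2448, 1470, 1542 and 1762 CPM in the nodes of mice 1 to 4 and 4621, 4416, 1683 and 2637 CPM in their spleens, and the checkpoint sum was 1668, 565, 425 and 611 CPM against 2790, 1190, 1036 and 782 CPM.

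Of 21 integrated stress and unfolded protein genes 4 fell in T cells of mice 2 to 4 and 0 rose, where 1.75% of all genes fell, while the list had a median log2 difference of −0.13 over 4 mice. Psat1, phosphoserine aminotransferase, was at 26.5, 18.3, 19.4 and 22.6 CPM in the nodes and 84.2, 53.2, 44.7 and 49.7 CPM in the spleens with no overlap (−1.09 ± 0.18, adjusted p = 0.167; −0.98 without mouse 1, adjusted p = 0.0255). Phgdh, the first enzyme of the same pathway, was at 108, 62.2, 55.6 and 57.4 CPM against 220, 213, 105 and 121 CPM (−0.93 ± 0.20, adjusted p = 0.308; −0.94 without mouse 1, adjusted p = 0.0322). In the Eµ-TCL1 mice these differences were −0.12 and −0.21, and the difference between the genotypes was −0.99 (interaction, unadjusted p = 0.01) and −0.75 (0.016), neither of which passed adjustment. Asns, asparagine synthetase, was at 22.4, 6.08, 7.37 and 8.86 CPM against 24.4, 13.3, 25.4 and 47.8 CPM and fell in mice 2 to 4 (−1.62, adjusted p = 0.0318). Slc7a11, the cystine transporter, fell as well (0, 0.190, 0.499 and 0.403 CPM against 3.55, 3.55, 3.84 and 6.68 CPM, −3.22, adjusted p = 0.0251). Its node values rest on 0, 1, 8 and 4 UMIs and it passed the filter on low counts through the spleen, so that the size of its difference is uncertain. These 4 were the members called. Slc7a11 gives that count no firm support, because it could enter the test only through its spleen values. Slc16a3, the lactate exporter MCT4, was at 4.07, 4.18, 3.81 and 7.05 CPM against 33.3, 19.5, 18.2 and 28.4 CPM (−1.97 ± 0.25, adjusted p = 0.104; −1.86 without mouse 1, adjusted p = 0.0188), and its difference in the Eµ-TCL1 mice was −2.70. Slc16a3 and Slc7a11 are also expressed by myeloid cells, whose markers were higher in the spleen T cells of 3 mice (monocyte and macrophage list) or 4 (neutrophil list), and the part of that RNA in these values was not tested. Of 18 tested glycolysis genes 0 were higher and 3 lower in 4 of 4 mice (median −0.22), where 9.57% of all genes were higher and 9.71% lower.

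The genes with the largest difference toward the node in T cells, by the naming rule that 279 genes fulfilled, were Spsb1, Gm10260, Tdrp, Gm11707, Timp2, Camk2n1, Fam177a and Rps27. None was called over 4 mice. Fam177a was at 112, 34.0, 82.9 and 52.1 CPM in the nodes and 47.98, 13.3, 33.9 and 29.96 CPM in the spleens (1.401 ± 0.19, adjusted p = 0.104), rose in mice 2 to 4 (1.39, adjusted p = 0.0215) and had a difference of 1.23 in the Eµ-TCL1 mice. Camk2n1, an inhibitor of calmodulin kinase II, was at 91.6, 38.8, 84.3 and 37.8 CPM against 24.6, 14.2, 43.2 and 26.1 CPM (1.41 ± 0.25, adjusted p = 0.188; 1.18 without mouse 1, adjusted p = 0.031). Spsb1, an adaptor of a ubiquitin ligase, was at 18.3, 17.9, 57.8 and 24.9 CPM against 18.4, 15.95, 6.15 and 5.44 CPM (1.89 ± 0.58), so that mice 1 and 2 had close values. Tdrp (22.4, 33.6, 53.5 and 31.5 CPM against 23.6, 5.32, 13.2 and 16.98 CPM, 1.602 ± 0.43) was also close in mouse 1. Timp2, a metalloproteinase inhibitor, was at 14.2, 13.5, 30.96 and 28.9 CPM against 5.20, 15.1, 9.74 and 10.4 CPM (1.44 ± 0.33). Rps27, a ribosomal protein gene, was at 5756, 6319, 6791 and 5905 CPM against 825, 3564, 4763 and 4191 CPM (1.39 ± 0.42; 0.91 without mouse 1, adjusted p = 0.028), and Gm10260 (1.66 ± 0.29; called without mouse 1, adjusted p = 0.0286) and Gm11707 (1.47 ± 0.37) completed the group.

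Whether node and spleen differed by another amount without the PRMT5 transgene was tested as an interaction over 14 libraries of 7 mice. No gene passed in B cells (0% of 12000, edgeR; 226 with an unadjusted p below 0.05, 1 by DESeq2) or T cells (0% of 11175; 188, and 0 by DESeq2). The Eµ-TCL1 pairs on their own gave 0 called genes in B cells (849 with an unadjusted p below 0.05) and 0 in T cells (402). By size, Ehf, an epithelial ETS factor, led in B cells. It was at 26.9, 18.7, 8.76 and 14.5 CPM in the nodes of mice 1 to 4 and 6.99, 6.25, 2.77 and 2.11 CPM in their spleens, and at 68.3, 2.34 and 3.39 CPM in the nodes and 28.6, 2.57 and 5.17 CPM in the spleens of mice 5 to 7 (2.03 against 0.14, a difference of 1.87 ± 0.45). Of mice 5 to 7 only mouse 5 had more than 5.17 CPM, and it was higher in the node like mice 1 to 4. The part of the salivary gland marker signal in Ehf was not tested. Lmo4, a LIM-only transcription cofactor, followed with 1.00 against −0.42 (1.39 ± 0.28); Lipc, Prr7 and Insl6 were the other B cell genes that differed in this direction. Adgrg1, an adhesion receptor of cytotoxic cells, had the largest difference in the other direction (−4.46 ± 0.64, adjusted p = 0.506), on values under 5 CPM in all libraries but those of mouse 7, which had 61.1 CPM in the node and 22.3 CPM in the spleen. It was followed by Ccr9, Adgrl2, Galnt7 and Mreg. In T cells Gzma, granzyme A, differed by 1.93 ± 0.46 (−0.46 in mice 1 to 4 and −2.42 in mice 5 to 7), and Gcg, Pak1, Lgals7 and Abcb1b went the same way. Id3, a regulator of memory T cells, differed by −1.71 ± 0.46 (−1.01 against 0.68), and the myeloid genes Csf1r (−2.82 ± 0.64), Clec4e, Tgfbi and Wfdc17 likewise. In the nodes of mice 1 to 4 Csf1r reached at most 1.44 CPM and Clec4e 2.62 CPM, so that the size of their differences is uncertain.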

How the data were processed

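Sub-mandibular lymph nodes and spleens were profiled by 10x Genomics 3′ scRNA-seq of live cells that were not sorted by type. Each library was deposited as a raw table of UMI counts, in whole numbers without normalization or a cell filter, with 31053 mouse genes and 737280 barcodes per library. The submitters' processing notes name Cell Ranger 2.0.1 and Seurat 2.2.1, while the matrix headers name another release of Cell Ranger, and GRCm38 is the genome the study names. No value column of another series was present. Cells of a droplet can carry free RNA, and UMIs count molecules, so that intervals cover counting error only.

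Groups and mouse numbers were read from the labels. Called barcodes were gated as the report states, and other classes needed 20 UMIs of S100a8 and S100a9 (neutrophil-like), 5 of monocyte or macrophage genes, 50 of haemoglobin genes, 20 of Jchain (plasma-like) or 2 of NK genes. Scrublet (scanpy 1.11.5) marked under 0.5% of barcodes in 7 of 8 libraries and 4.01% in the node of mouse 4, and was judged not to have worked. The B gate allows no Cd3 UMI and the T gate at most 1 Cd79 UMI, and no other doublet filter was used. Both gates went before the myeloid and erythroid classes, so that doublets with such cells can stay in the sums. UMIs were summed per library and cell class and tested with edgeR 4.0.16 (limma 3.58.1, R 4.3.3; TMM, filterByExpr by tissue, robust quasi-likelihood F test, BH adjustment) with the mouse as a block. DESeq2 1.42.0 was an alternative. Every adjusted p in the report is from edgeR. Eµ-TCL1 pairs entered an interaction fit of 14 libraries from 7 mice. Shares were compared by an exact two-sided sign-flip permutation test over mice (scipy 1.17.1, numpy 2.4.6, pandas 2.3.3, Python 3.11.15), whose smallest p is 0.125 for 4 mice and 0.25 for 3. The animals were taken as separate from the mouse number, and the leading heavy chain V genes differed between mice 1 to 4. The edgeR p-values set node minus spleen against the variation between these mice, estimated with information shared over genes. The sign-flip p-values use the paired differences of these mice alone.

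Pairs were taken from the mouse number that both titles carry, not from the replicate numbers, which do not pair the tissues. As a check, deviations of the libraries from the mean of their tissue correlated across genes at r = 0.17, 0.55, 0.38 and 0.24 within mice 1 to 4 in B cells and at −0.31 to 0.02 between mice, and in T cells at 0.01, 0.23, 0.12 and 0.12 within mice and at −0.24 to 0.10 between mice.

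Named genes were up to 8 per direction with the largest log2 difference among the genes called or, where fewer than 5 were called, among those with an unadjusted p below 0.05, at a mean of at least 20 CPM in the higher tissue and the same direction in every mouse. Immunoglobulin and T cell receptor segments and gate genes were left out. The interaction could name up to 5 per direction, and members of the 29 gene lists and 11 marker lists could be named as well. Values of a few list members are not reported here. The mice, lists and rules were chosen with earlier results of these data known. The tests were run on simulated counts with 200 changed genes: edgeR found 20% (log2 1) and 78% (log2 2) with 7 false calls in B cells, and 6 and 76% with 5 in T cells. DESeq2 found 39 and 84% with 41 false calls, and 24 and 85% with 17. Alternatives covered the tool, scaling, gene filter, UMI limit, thinning, block, cells with free RNA and each mouse left out, and those that combine mouse 1 with another choice were added after seeing the data.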

Additional observations from a re-analysis of the deposited data

Results flagged for a closer look

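Of 86 groups of 4 values, 20 held a value flagged by Dixon's rule. Its gap to the nearest of the others, as a share of the range, exceeded the 95% critical value. The chance rate of about 1 in 20 groups is that for normally distributed values. Here the values were CPM and percentages, many of them of genes named for large differences in the same data. The count of 20 therefore cannot be compared with that rate, and the flags only mark values that stood apart. Many of the flagged values share a library, so that they are not independent of each other, and no cause was tested.

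The spleen of mouse 4 held the highest value of erythroid-like cells (0.782% of called barcodes, 0.0838 to 0.128% in the other 3 spleens), and in B cells of Hbb-bs (1659 CPM, 5.87 to 8.70), Mpo (328.5 CPM, 4.16 to 54.3), Ctsg (163.7 CPM, 1.27 to 24.6), Prtn3 (562.2 CPM, 10.2 to 94.95) and Elane (368.9 CPM, 7.85 to 41.9). Its node stood out in B cells for Amigo2 (129.5 CPM, 42.0 to 53.5 in the other nodes).

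Mouse 1 stood out in its spleen for the ribosomal protein share of T cell UMIs (9.02%, 25.4 to 27.04% in the others), Hist1h2ap in B cells (27.39 CPM, 148 to 151) and Amigo2 in B cells (47.11 CPM, 14.8 to 19.2), and in its node for NK-like cells (0.893% of called barcodes, 0.0348 to 0.106%) and Hist2h2aa1 in B cells (64.99 CPM, 16.4 to 20.3).

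The node of mouse 3 stood out for neutrophil-like cells (2.084% of called barcodes, 0.127 to 0.383%), for Ankrd9 in B cells (64.98 CPM, 2.96 to 8.95), and in T cells for the myeloid genes Clec4e (2.622 CPM, 0 to 0.201) and Hp (7.367 CPM, 0 to 0.604). The node of mouse 2 stood out in B cells for Ctsg (0.3753 CPM, 0 in the others), Elane (6.944 CPM, 0 to 0.120) and Galnt7 (20.14 CPM, 0.461 to 3.70), and in T cells for Hbb-bt (2.281 CPM, 0 to 0.125).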

How the results depend on the processing

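The B cell count of 0 called genes became 46 with DESeq2, 10 with every gene kept and 0 to 2 with each mouse left out. It became 12 without mouse 1 and cells with free RNA markers, 74 without mouse 1 after thinning, and 160 without mouse 1 with DESeq2. Leaving out mouse 1 called Egr1 and Cystm1, mouse 2 Elane, mouse 3 Ltf and mouse 4 none. The T cell count of 2 became 155 with DESeq2, 88 with every gene kept, 4 in the fit over 14 libraries (Cd68, Csf1r, Cxcl2 and F10) and 7 in CD4 cells. It became 0 from 500 or from 3000 UMIs, after thinning, without cells with free RNA markers, and in CD8 cells. With each mouse left out it was 0 to 480: 480 without mouse 1, 1 without mouse 3 (Clec4e) and 0 without mouse 2 or mouse 4. Without mouse 1 the count was also 125 without cells with free RNA markers (116 of them among the 480), 656 after thinning (335 shared), 850 with DESeq2 (473 shared) and 298 in CD8 cells (259 shared). Without the replicate block for the mouse pairing the T cell count was 0 and the B cell count 0 (404 genes with an unadjusted p below 0.05); the block changed no other count of called genes, while interaction genes with an unadjusted p below 0.05 went from 226 to 67 in B cells and from 188 to 157 in T cells. RLE scaling left 2 T cell genes. Members of the gene lists that were called, 0 over 4 mice, were 14 with DESeq2, 4 with every gene kept, 0 to 46 with each mouse left out, and, without mouse 1, 18 without free RNA cells, 98 after thinning and 127 with DESeq2. The interaction in B cells gave 1 gene with DESeq2. Cxcl2 and F10 in T cells lost their calls without the block, from 500 or 3000 UMIs, and without mouse 2, 3 or 4 (edgeR adjusted p = 0.079 to 0.243 for Cxcl2; F10 was under the count filter without mouse 3 or 4). Ly6c2 in B cells reversed to 0.5646 without free RNA cells and to 1.238 without mouse 1 as well. The plasma-like share difference was −3.666 to 0.5745 points with each mouse left out, the NK-like one −0.2439 to 0.08578 and 0.00177 from 3000 UMIs, and the CD8 one −3.015 to 9.478. Of 553 checks of named genes 461 kept direction and side of the threshold and 84 gained a call. After thinning, and without cells with free RNA markers, neither Cxcl2 nor F10 passed the filter on low counts in T cells. The number of mice, 4, and the 103 T cells of the node of mouse 1 limit these tests, and the cause of each change was not tested.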
